A study of Homo sapiens with 6 samples.

Results

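Transcript levels of the cohesin subunits were examined in M14 human melanoma cells in which the cohesin gene STAG2 had been knocked down. The members were chosen by gene symbol: STAG2, STAG1 and STAG3, the SMC subunits SMC1A, SMC1B and SMC3, and the kleisins RAD21 and REC8. Each symbol had 1 row in the count table, so the group holds 8 of the 57820 genes listed. All 6 libraries came from M14 cells carrying a doxycycline-inducible STAG2 shRNA and grown in RPMI with serum and puromycin. Cells were cultured for 5 days without doxycycline (WT, 3 libraries) or with it (KD, 3 libraries), so the WT cells carried the shRNA construct too. Doxycycline and the shRNA came together in every KD library, and their effects cannot be told apart here. The study's methods describe lines made by lentiviral infection as stable populations kept under antibiotic selection, and the study calls its RNA-seq replicates biologically independent samples.

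Cohesin is a ring-shaped protein complex that encircles DNA. In dividing somatic cells SMC1A and SMC3 form the long arms of the ring, RAD21 closes it, and STAG1 or STAG2 binds to RAD21. The complex holds sister chromatids together until anaphase and extrudes chromatin loops that are often anchored where CTCF is bound. In germ cells entering meiosis SMC1B, REC8 and STAG3 take the places of SMC1A, RAD21 and the somatic STAG proteins. STAG2 is recurrently inactivated in several human cancers, and cells without it depend on STAG1.

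Whether 50-base reads can separate these paralogs bears on every value that follows. The 90-base stretches of coding sequence in which the STAG pair and the SMC1 pair are most alike are therefore shown first. They were sought without gaps and within a single exon, so stretches across exon junctions were not considered. Both pairs were read from the GRCh37 genome on the coding strand, and capitals mark the bases at which the members of a pair differ. The STAG2 stretch lies in coding exon sequence at chrX:123184056-123184145 (plus strand, exon 11 of the canonical transcript) and the STAG1 stretch at chr3:136196145-136196234 (minus strand, exon 10):
STAG2: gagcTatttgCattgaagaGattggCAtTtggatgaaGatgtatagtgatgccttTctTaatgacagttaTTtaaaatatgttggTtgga
STAG1: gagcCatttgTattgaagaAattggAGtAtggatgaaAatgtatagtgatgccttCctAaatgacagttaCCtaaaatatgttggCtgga
The SMC1A stretch lies at chrX:53409205-53409294 (minus strand, exon 22) and the SMC1B stretch at chr22:45748383-45748472 (minus strand, exon 22):
SMC1A: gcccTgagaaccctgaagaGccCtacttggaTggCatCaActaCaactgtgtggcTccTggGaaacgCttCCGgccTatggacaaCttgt
SMC1B: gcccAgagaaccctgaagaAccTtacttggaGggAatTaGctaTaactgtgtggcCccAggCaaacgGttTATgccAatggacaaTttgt
Even in these 90 bases STAG2 and STAG1 differed at 12 positions, and their longest identical run was 17 bases. SMC1A and SMC1B differed at 17 positions. Over the whole coding sequence STAG2 and STAG1 were identical at 73.0% of 3701 aligned bases, with no identical run longer than 21 bases. STAG2 and STAG3 shared 64.5% of aligned bases, SMC1A and SMC1B 62.4%, and RAD21 and REC8 60.8%. No 50-base window of any member's canonical transcript occurred exactly in another member's transcripts. The members therefore did not share exact reads with each other. However, 838 of the 4150 windows of STAG3 (20.2%) also occurred in transcripts of other genes, among them the STAG3-like copies. Another of these genes, ENSG00000292277, overlaps 462 exon bases of STAG3 on the same strand and has no row in the count table. For SMC3 the share was 6.12% (the pseudogene SMC3P1) and for RAD21 2.19% (RAD21P1), while for STAG2, STAG1, SMC1A, SMC1B and REC8 it was 0.

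The libraries held between 24895998 and 35181733 expected counts. Levels are given as CPM, the expected counts scaled to a library of 1000000 tested-gene counts after scaling by the trimmed mean of M-values (TMM). A floor of 3 counts corresponded to between 0.087 and 0.112 CPM and covers counting error only. Among the 15605 genes with enough counts to be tested, 404 (2.59%) passed an adjusted p of 0.05 in edgeR's quasi-likelihood test (p-values adjusted after Benjamini and Hochberg), 273 higher and 131 lower in KD. Of the same genes DESeq2 called 547 higher and 432 lower, and limma-voom 275 and 137. At an unadjusted p of 0.05 in edgeR the counts were 1212 and 1090. WT replicate 1 stood apart in its mitochondrial share of counts, 5.07% against 2.12% to 2.94% elsewhere. It had the fewest expected counts but the most genes above 0 (20646, against 16028 to 17995 elsewhere). Both replicate 1 libraries stood apart in the sum of 14 melanocyte markers, all abundant enough to be tested. The sum was 6680 CPM in WT replicate 1 and 2930 CPM in KD replicate 1, against between 1390 and 2130 CPM in the other 4 libraries. Most of it in WT replicate 1 came from PMEL (3370 CPM) and DCT (1432 CPM). Not every marker was raised there, and SOX10 was lowest in replicate 1 of both conditions (572 CPM in WT, 324 CPM in KD). Markers of fibroblasts, keratinocytes, leukocytes and endothelium (17 of 18 had a row) summed to 38, 135 and 111 CPM in WT and to 26.2, 57.1 and 54.2 CPM in KD, mostly from KRT10 and COL1A1. Without those genes the sum was between 6.95 and 17.4 CPM, and KRT1 and CD3E were at 0 in every library. None of the 9 markers tested from this list passed in edgeR, at an unadjusted p of 0.05 in edgeR, or in DESeq2 or limma-voom. With a replicate block COL1A1 passed, being lower (1 of 9, against 4.42% of all tested genes). The part of these differences in the cohesin results was not tested.

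The 7 cohesin genes other than SMC1B had enough counts to be tested. STAG2 was lower in KD at 23.0% of its WT mean, and it was the only subunit of 7 to pass the threshold (0.839% of all tested genes passed in this direction), while 0 of 7 were called higher (1.75% of tested genes, and 0 of 7 also at an unadjusted p of 0.05 in edgeR, in DESeq2 and in limma-voom). At an unadjusted p of 0.05 in edgeR, 4 of 7 were lower, namely STAG2, STAG1, SMC1A and RAD21, as were 1090 of the 15605 tested genes. STAG1, SMC1A, SMC3 and RAD21, the other transcripts of somatic cohesin, had KD means between 52.3% and 70.7% of WT. None of them passed without a replicate block. With it RAD21 passed (adjusted p = 0.0181 in edgeR), while STAG1 (0.0548), SMC3 (0.0788) and SMC1A (0.104) did not. These 5 genes were each lower in KD than in WT within all 3 replicate numbers, which held for 22.9% of all tested genes. STAG2, STAG1 and SMC1A had no overlap between the conditions, 3 of 7 members against 10.5% of tested genes that were lower without overlap. The log2 fold change was below 0 for 6 of the 7 members and for 52.0% of all tested genes, with a median of -0.65 over the members and -0.03 over all tested genes. STAG2, the target of the shRNA, is in each of these counts of lower members, and its lower level was set by the design. Apart from STAG2, the members lower at an unadjusted p of 0.05 in edgeR were STAG1, SMC1A and RAD21. Those without overlap were STAG1 and SMC1A. The members' directions stayed the same with upper-quartile or DESeq2 scaling. In bulk RNA, fewer cells of a kind and less of a transcript per cell cannot be told apart.

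**Figure D1:**
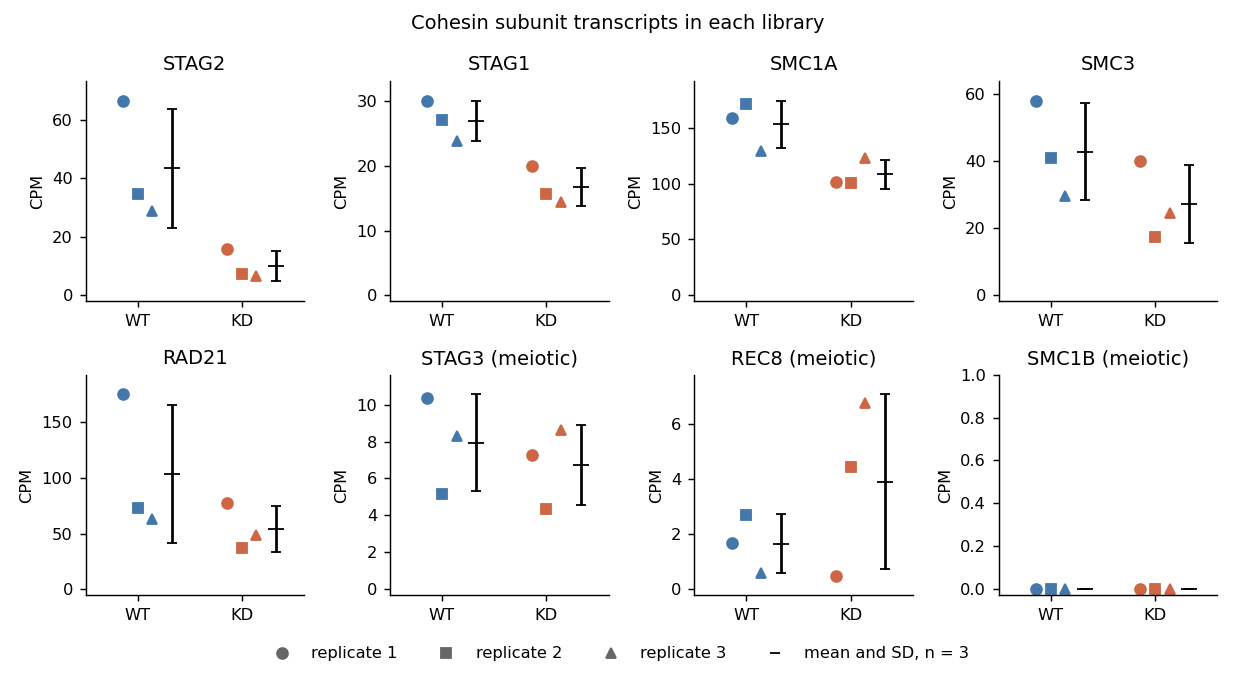
Expression of each cohesin subunit in every library, in CPM on a separate linear axis for each gene, with WT in blue and KD in orange, a marker shape for each replicate number, and the mean and SD (n = 3) beside each group. STAG2, STAG1 and SMC1A do not overlap between WT and KD, SMC3, RAD21, STAG3 and REC8 do, and SMC1B is at 0 throughout.

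STAG2 (ENSG00000101972; GRCh37 chrX:123094062-123556514, plus strand), the target of the shRNA, measured 66.5, 34.8 and 28.8 CPM in WT replicates 1 to 3. In KD it measured 15.96, 7.31 and 6.69 CPM. The highest KD library thus lay below the lowest WT library, and replicate 1 was the highest library in both conditions. Within replicate numbers KD retained 24.0%, 21.0% and 23.2% of the WT level, a narrower range than that of the levels themselves, which fell from 43.4 ± 20.3 (SD, n = 3) to 9.99 ± 5.18 CPM. The log2 fold change was -2.12 (SE 0.43, 95% interval -3.07 to -1.16; Benjamini-Hochberg adjusted p = 0.0342 in edgeR's quasi-likelihood test). With a replicate block it was -2.14 (SE 0.19, adjusted p = 0.000104 in edgeR), and in DESeq2 without a block -2.12 (adjusted p = 3.45e-05 in DESeq2). With only the replicate 2 and 3 libraries it was -2.17 (adjusted p = 0.00298 in edgeR). In the test without a block, leaving out single libraries ended the call in 4 of 6 cases. The adjusted p in edgeR was 0.0757 without WT replicate 2, 0.0652 without WT replicate 3, 0.168 without KD replicate 2 and 0.152 without KD replicate 3, with log2 fold changes between -2.35 and -1.92.

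STAG1 (ENSG00000118007; chr3:136055078-136471245, minus strand), the paralog that can occupy the same place on RAD21, was not higher in KD. It measured 30.03, 27.1 and 23.8 CPM in WT and 19.98, 15.7 and 14.5 CPM in KD, so that every KD library lay below every WT library. KD held 66.5%, 57.8% and 60.9% of WT within replicate numbers. The log2 fold change was -0.69 (SE 0.24) with a 95% interval from -1.23 to -0.15, which lies wholly below 0 for this gene taken alone, but the adjusted p of 0.204 in edgeR's test over all genes did not pass. PCCB, a mitochondrial carboxylase subunit gene on the opposite strand, overlaps 1661 exon bases of STAG1 and averaged 53.5 ± 8.58 CPM in the WT libraries against 60.8 ± 8.30 CPM in KD (SD, n = 3). Its log2 fold change of 0.18 (adjusted p = 0.788 in edgeR) had the opposite sign to that of STAG1. The libraries were directional, and the strand setting of the counting is not given in the sources used here. Opposite-strand genes also overlap exon bases of RAD21 (UTP23, 576 bases), STAG2 (TENM1, 241), SMC1A (RIBC1, 39) and REC8 (IPO4, 39). CASTOR3P, likewise on the opposite strand, overlaps 1276 exon bases of STAG3 and has no row in the count table. IPO4 averaged 135 CPM in WT, where REC8 averaged 1.65 CPM.

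SMC1A (ENSG00000072501; chrX:53401070-53449677, minus strand) encodes an SMC arm of the somatic ring. It measured 159, 171 and 129 CPM in WT and 101, 100.02 and 123.02 CPM in KD. The conditions did not overlap, but the closest libraries, WT and KD replicate 3, differed by little (KD at 95.1% of WT, against 63.8% and 58.6% for the other numbers). Its log2 fold change was -0.50 (SE 0.19, 95% interval -0.94 to -0.07; adjusted p = 0.258 in edgeR). Unlike STAG2, SMC1A was not highest in replicate 1.

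SMC3 (ENSG00000108055; chr10:112327442-112365806, plus strand), the other SMC arm, measured 58.2, 41.0 and 29.6 CPM in WT and 40.05, 17.4 and 24.7 CPM in KD. The conditions overlapped, because KD replicate 1 exceeded WT replicate 3, while KD held 68.8%, 42.4% and 83.3% of WT within replicate numbers. The log2 fold change of -0.65 (SE 0.35, 95% interval -1.42 to 0.13) had an adjusted p of 0.444 in edgeR's test. It was -0.38 without WT replicate 1, -0.41 without KD replicate 2 and -1.03 without KD replicate 1.

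RAD21 (ENSG00000164754; chr8:117858173-117887015, minus strand) encodes the kleisin that separase cleaves at anaphase. It varied widely between replicates, at 175, 73.1 and 63.0 CPM in WT and 77.2, 36.8 and 48.6 CPM in KD. WT replicate 1 was 2.57 times the mean of WT replicates 2 and 3, and KD replicate 1 lay above both of those WT libraries. Within replicate numbers KD held 44.2%, 50.3% and 77.2% of WT. Without a replicate block the log2 fold change was -0.93 (SE 0.41, 95% interval -1.84 to -0.02; adjusted p = 0.323 in edgeR). With the block it was -0.85 (SE 0.19) and passed, with an adjusted p of 0.0181 in edgeR, and the blocked test called 2 of 7 subunits against 9.52% of all tested genes. Both, RAD21 and the shRNA's own target STAG2, were lower (4.42% of tested genes), and none was higher (5.10%). With only the replicate 2 and 3 libraries RAD21 had a log2 fold change of -0.67 and an adjusted p of 0.118 in edgeR. Leaving out WT replicate 1 alone moved it to -0.34 (adjusted p = 0.629 in edgeR), and leaving out KD replicate 1 alone to -1.28.

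**Figure D2:**
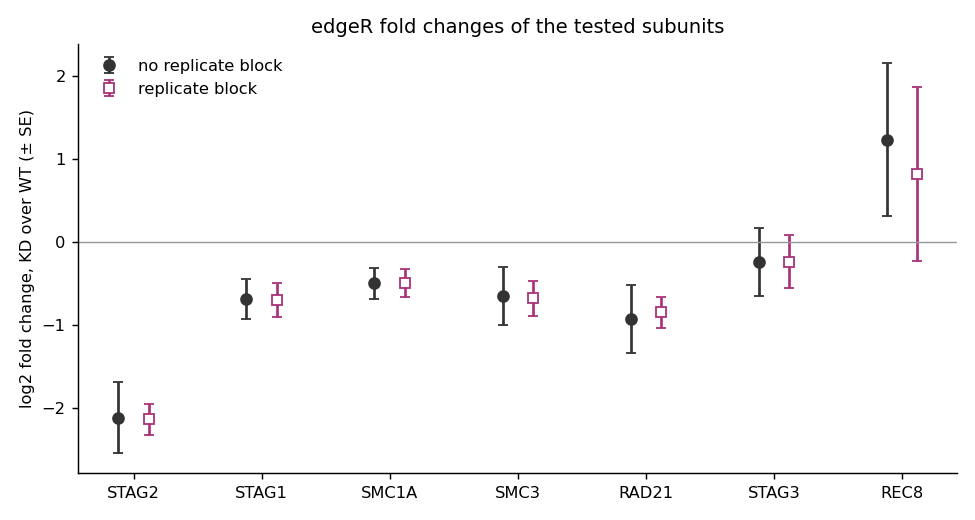
Log2 fold change of KD over WT with its SE for the 7 tested subunits, from edgeR without a replicate block (filled circles) and with it (open squares). STAG2 lies lowest at -2.12, STAG1, SMC1A, SMC3 and RAD21 lie between -0.93 and -0.50, and the bars of REC8 are the longest.

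The meiotic subunits ranged from undetected to present in every library. STAG3 (ENSG00000066923; chr7:99775186-99812010, plus strand), the meiotic STAG protein, was detected in every library at 10.4, 5.17 and 8.32 CPM in WT and 7.26, 4.33 and 8.61 CPM in KD. These ranges overlapped almost fully, and the log2 fold change was -0.24 (SE 0.41, 95% interval -1.16 to 0.68; adjusted p = 0.868 in edgeR), an interval that holds no change as well as the values of SMC3 and STAG1. Of its windows 20.2% also occur in transcripts of other genes, in part the STAG3-like copies. The authors' estimate divides reads that match several counted genes, so the STAG3 level is uncertain. The overlap with CASTOR3P on the opposite strand adds to this, as the strand setting of the counting is not given. The 6 STAG3-like rows measured between 7.92 and 33.3 CPM on average in WT. In edgeR 0 of these 6 passed, against 2.59% of all tested genes (1 at an unadjusted p of 0.05, 0 in DESeq2 and 0 in limma-voom), and with a replicate block STAG3L3 and STAG3L5P were lower (2 of 6, against 4.42%).

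REC8 (ENSG00000100918; chr14:24641062-24649463, plus strand), the meiotic kleisin, rested on few counts in some libraries. It measured 1.68, 2.698 and 0.583 CPM in WT and 0.498, 4.43 and 6.76 CPM in KD, from 45, 93 and 16 expected counts in WT and 16, 131 and 221 in KD. KD replicates 2 and 3 lay above all WT libraries, and KD replicate 1 lay below all of them. The log2 fold change was 1.23 (SE 0.92), and its 95% interval from -0.82 to 3.29 covered both directions (adjusted p = 0.632 in edgeR). Leaving out single libraries gave values from 0.57, without KD replicate 3, to 1.78, without WT replicate 2. SMC1B (ENSG00000077935; chr22:45739944-45809500, minus strand), the meiotic partner of SMC3, had 0 counts in each of the 6 libraries, which allows up to between 0.087 and 0.112 CPM at the floor of 3 counts.

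To set the subunits beside each other, CPM was divided by the length in kb of the union of annotated exons. On this scale WT cells held 14.1 ± 1.96 CPM per kb of SMC1A, 7.21 ± 4.30 of RAD21, 3.44 ± 0.397 of STAG1, 2.77 ± 0.929 of SMC3, 2.71 ± 1.27 of STAG2, 1.29 ± 0.426 of STAG3 and 0.430 ± 0.275 of REC8 (SD, n = 3). The neighbours SMC1A and RAD21, STAG1 and SMC3, and SMC3 and STAG2 had overlapping ranges, while the other neighbours did not overlap. In KD the order was SMC1A at 9.98, RAD21 at 3.77, STAG1 at 2.13, SMC3 at 1.77, STAG3 at 1.097, REC8 at 1.02 and STAG2 at 0.625 CPM per kb. STAG2 thus moved from among the somatic subunits to the range of the meiotic ones, and in KD every neighbouring pair from STAG1 down to STAG2 overlapped. This order depends on the length used. Per kb of the canonical transcript, RAD21 led in WT (28.3 ± 16.9 CPM per kb, against 15.7 ± 2.19 for SMC1A) and STAG2, at 7.02 ± 3.28, lay above STAG1, at 4.45 ± 0.513, with overlapping ranges.

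Between the somatic STAG transcripts, STAG2 made up 52.1%, 38.6% and 37.2% of STAG1 plus STAG2 per kb in WT and 28.2%, 18.6% and 18.5% in KD. The conditions did not overlap, with means of 42.6% ± 8.19 and 21.7% ± 5.55 (SD, n = 3), and the difference was -20.9 percentage points. Per kb of the canonical transcript the means were 59.5% ± 7.82 and 35.5% ± 7.30, so which of the pair was the more abundant in WT depended on the length, but the share was lower in every KD library on each scale. STAG1 plus STAG2 together, relative to the mean of SMC1A, SMC3 and RAD21, measured 0.784, 0.719 and 0.796 in WT and 0.615, 0.570 and 0.417 in KD, again without overlap, and the difference of -0.233 became -0.352 per kb of the longest transcript. STAG1 alone relative to that mean was 0.439 ± 0.0618 in WT and 0.415 ± 0.0662 in KD, with overlapping libraries. The level of STAG1 beside the ring transcripts thus differed by less than the spread between replicates, while that of STAG2 was 0.328 ± 0.0708 in WT and 0.119 ± 0.0493 in KD. With 3 libraries against 3, an exact two-sided permutation test cannot go below 0.1.

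**Figure D3:**
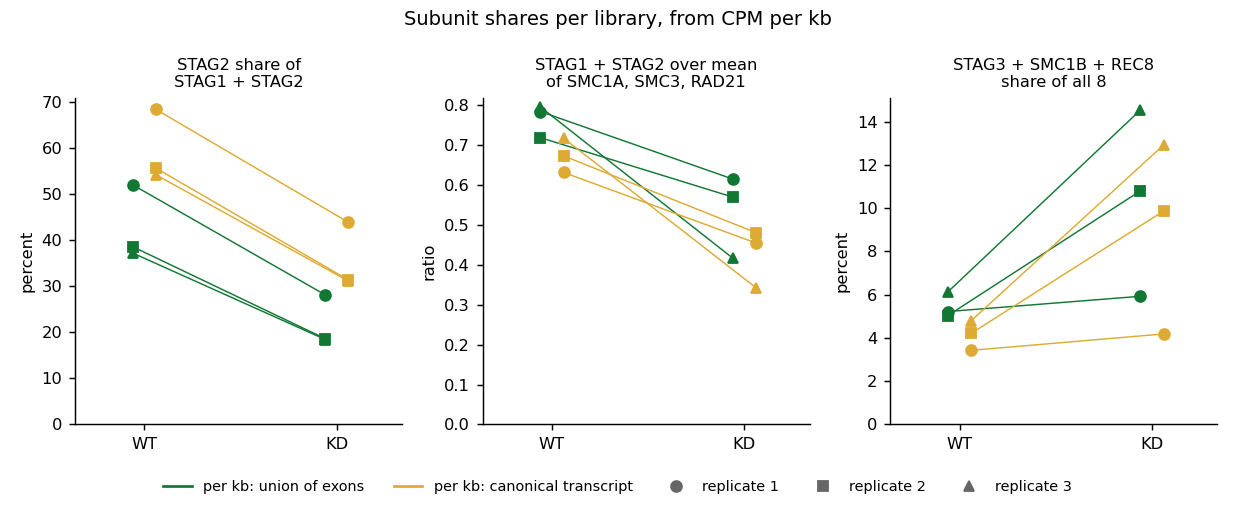
Shares and ratios in each library, with lines joining the WT and KD libraries of the same replicate number, from CPM per kb of the union of exons (green) and of the canonical transcript (yellow). On both length scales the STAG2 share (left, percent) and STAG1 plus STAG2 over the ring mean (middle, ratio) are lower in all 3 KD libraries, while the meiotic share of the 8 subunits (right, percent) is close to WT in KD replicate 1 and higher in KD replicates 2 and 3.

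Meiotic subunits made up 5.22%, 5.03% and 6.13% of all 8 subunits per kb in WT and 5.92%, 10.8% and 14.5% in KD. KD replicate 1 lay within the WT range, so the conditions overlapped, and the means were 5.46% ± 0.586 and 10.4% ± 4.32 (SD, n = 3). The denominator of this share holds the somatic subunits, whose means were lower in KD. Per kb STAG3 averaged 1.29 CPM in WT and 1.097 in KD, and REC8 0.430 and 1.02. The 4.96-point difference in the share became 2.90 points without KD replicate 3 and 2.17 points with counts not divided by length. Of 26 other listed genes of meiosis, most with roles in the synaptonemal complex or in making and repairing meiotic breaks, 11 were at 0 in all libraries and 8 could be tested. None of the 8 passed in edgeR (2.59% of all tested genes did), with a replicate block, at an unadjusted p of 0.05 in edgeR, in DESeq2 or in limma-voom. PRDM9, SPO11 and STRA8 were among the genes at 0, and RAD21L1, the remaining kleisin of human cohesin, was at 0 as well.

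The regulators that load, release, acetylate and cleave cohesin were compared next, together with CTCF (17 genes). In edgeR 0 of 17 passed the threshold against 2.59% of all tested genes (3 at an unadjusted p of 0.05, 1 in DESeq2 and 0 in limma-voom). Of these, 14 had log2 fold changes below 0, with a median of -0.35. ESPL1, which encodes separase, measured 99.5, 151 and 142 CPM in WT and 48.3, 75.5 and 73.6 CPM in KD without overlap. Its log2 fold change was -0.99 (SE 0.24; adjusted p = 0.0741 in edgeR), and it passed with a replicate block (adjusted p = 0.0022 in edgeR; 4.42% of all tested genes were called lower) and in DESeq2. MAU2, the partner of the loader NIPBL, and HDAC8, the SMC3 deacetylase, were the regulators whose KD libraries all lay above WT (2 of 17, against 11.8% of all tested genes), each with a log2 fold change of 0.49 (adjusted p = 0.271 and 0.424 in edgeR). ESPL1, PTTG1, which encodes the separase inhibitor securin, and CHTF18, part of an alternative clamp loader, were those whose KD libraries all lay below WT (3 of 17, against 10.5%). PTTG1 had a log2 fold change of -0.49 (adjusted p = 0.24 in edgeR) and CHTF18 of -0.35 (adjusted p = 0.462 in edgeR). NIPBL had a log2 fold change of -0.11 (95% interval -0.91 to 0.69), WAPAL, which releases cohesin from DNA, -0.05 (-0.69 to 0.60), and CTCF -0.10 (-0.52 to 0.33).

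Condensin and the SMC5/6 complex, the relatives of cohesin built on the same SMC architecture, gave 0 calls among 14 tested subunits in edgeR, against 2.59% of all tested genes (6 at an unadjusted p of 0.05, all lower, 4 in DESeq2 and 0 in limma-voom). Their median log2 fold change was -0.41, and 7 of the 14 were lower in KD without overlap, against 10.5% of all tested genes. With a replicate block SMC4, NCAPD2, NCAPG and NCAPG2, all condensin subunits, were lower, 4 of 14 against 4.42% of all tested genes. SMC4 averaged 103 ± 47.7 CPM in the WT libraries against 49.7 ± 10.8 CPM in KD (SD, n = 3), and SMC5, SMC6 and the remaining SMC5/6 subunits that were tested had log2 fold changes between -0.26 and 0.29.

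Genes of proliferating cells were also compared. All 20 of the list had log2 fold changes below 0 with a median of -0.87, and 13 were lower in KD without overlap, against 10.5% of all tested genes. MKI67, TOP2A, AURKA and PLK1 were lower in edgeR, 4 of 20 against 0.839% of all tested genes, and MKI67 passed only just. With a replicate block 12 of 20 were lower, against 4.42%. DESeq2 called 9 of 20, all lower, against 432 of all 15605 tested genes. TOP2A, the mitotic topoisomerase, measured 263, 127 and 133 CPM in WT and 39.8, 29.8 and 42.5 CPM in KD (log2 fold change -2.22, SE 0.31; adjusted p = 0.00582 in edgeR). PLK1, the kinase that helps remove cohesin from chromosome arms in prophase, had a log2 fold change of -1.90 (SE 0.36; adjusted p = 0.0267 in edgeR). Among 14 melanocyte markers 1, S100B, was lower (log2 fold change -1.35, SE 0.21, adjusted p = 0.00949 in edgeR), against 0.839% of all tested genes. With a replicate block 8 were lower (4.42% of all tested genes) and 1 higher (5.10%). The part of either list in the levels of STAG1, SMC1A, SMC3 and RAD21 was not tested.

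**Figure D4:**
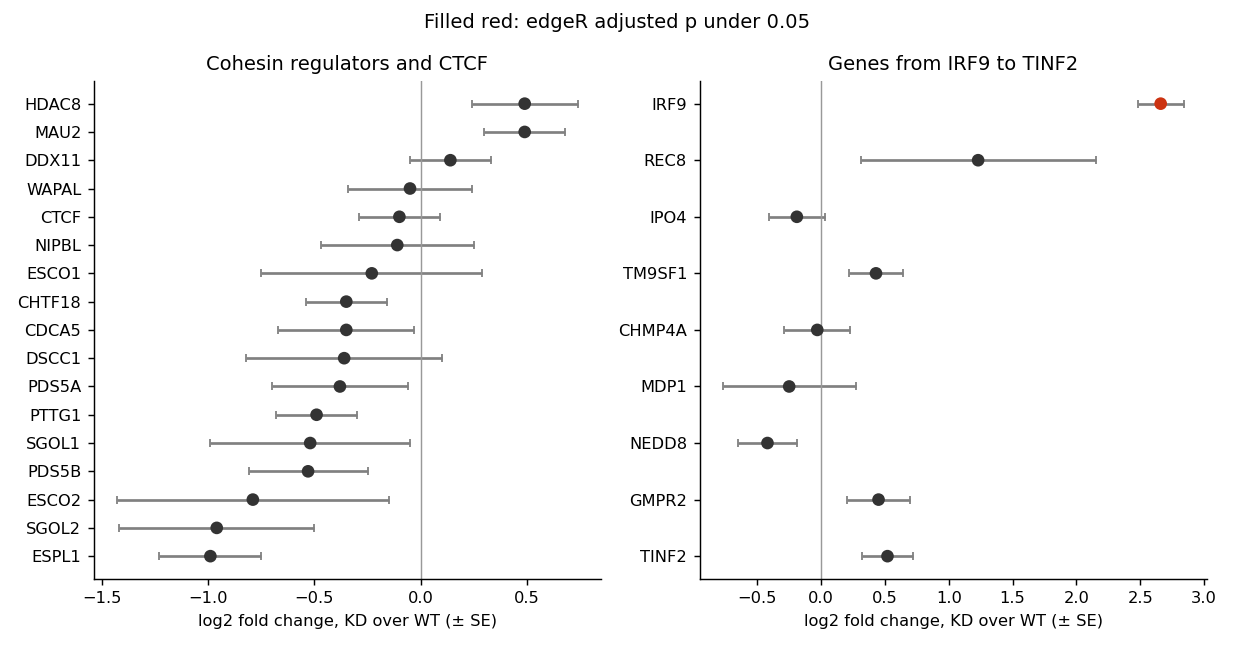
Log2 fold change of KD over WT with its SE for 17 genes, the cohesin regulators with CTCF (left, sorted by value) and for the 9 tested genes from IRF9 to TINF2 in chromosome order (right), with red marking an edgeR adjusted p under 0.05. Only IRF9, at 2.66, is marked, and 14 of those 17 genes lie below 0.

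REC8 lies on chromosome 14 with 3809 bases between its start and the end of IRF9, the interferon-response transcription factor. IRF9 measured 19.0, 21.5 and 19.9 CPM in WT and 130.2, 123.2 and 128 CPM in KD (log2 fold change 2.66, SE 0.18; adjusted p = 6.49e-05 in edgeR). The IRF9 libraries varied little within a condition, whereas those of REC8 spread from below to above the WT range in KD. Further along, TINF2 (log2 fold change 0.52, adjusted p = 0.269 in edgeR), TM9SF1 (0.43, 0.389) and GMPR2 (0.45, 0.462) had positive values that did not pass. IPO4, CHMP4A, MDP1 and NEDD8 had log2 fold changes of -0.19, -0.03, -0.25 and -0.42. TSSK4 was at or below 0.546 CPM in every library and was not tested. Between IRF9 and TINF2, then, 1 of 9 tested genes passed, IRF9, being higher (1.75% of all tested genes). With IRF9, TM9SF1 and TINF2, 3 of 9 were higher without overlap (11.8% of all tested genes). The list starts at IRF9, which the study had reported as higher after STAG2 knockdown. Its part in both counts was therefore known beforehand and is no result about the interval. No other tested gene of the list passed.

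Among the genes whose levels followed STAG2 most closely over the 6 libraries were ANP32E (Pearson r = 0.9931 of log2 CPM), IL6ST (0.993), ZBTB44 (0.9926) and KIAA1551 (0.9917), out of 13534 genes with a mean of at least 1 CPM. This is a description over libraries that share the condition and the replicate 1 difference, which both enter the likeness. IL6ST, the shared receptor chain of IL-6 type cytokines, measured 87.4, 53.6 and 51.4 CPM in WT and 35.05, 24.9 and 25.002 CPM in KD. Like STAG2 it was highest in replicate 1 of each condition and did not overlap between them, over a smaller range (log2 fold change -1.18, adjusted p = 0.0528 in edgeR). With a replicate block IL6ST passed (adjusted p = 0.00214 in edgeR), as did ANP32E (0.0323) and KIAA1551 (0.0384), while ZBTB44 did not (0.103). These 4 genes were all lower in KD without overlap, which choosing them by likeness to STAG2 favours.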

How the data were processed

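Poly(A) RNA of M14 cells was sequenced as directional libraries, and the authors mapped single reads to hg19 with STAR and quantified genes with RSEM. They deposited expected counts per gene, unscaled estimates in which a read matching several genes is divided between them. The gene annotation release and strand setting are not given in the sources used here.

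Expected counts were rounded and filtered with filterByExpr, which kept 15605 genes. KD was compared with WT in edgeR 4.0.16 (R 4.3.3) with TMM scaling and the quasi-likelihood test, with Benjamini-Hochberg adjustment across the tested genes and a threshold of 0.05. The SE was taken from the log2 fold change and its F statistic. Same-numbered WT and KD libraries deviated together from their condition means (r = 0.607, 0.479 and 0.38 over 8932 genes with a mean of at least 10 CPM). WT replicate 2 with KD replicate 3 gave 0.305, and WT replicate 3 with KD replicate 2 gave 0.198. Pairs of replicate 1 with another number lay between -0.555 and -0.395. Deviations from a condition mean sum to 0, so these negative values follow from the 0.607 and are not separate evidence. The same-number value was largest for replicate 1, and pairing within replicates 2 and 3 is less clear. A replicate block was run beside each result. Alternatives were DESeq2 1.42.0, limma-voom (limma 3.58.1), upper-quartile scaling, other count filters, unrounded counts, other gene lengths and leaving out libraries. The canonical transcript lengths and the fit with the replicate 2 and 3 libraries alone were added after the data had been seen. Scripts were tested on simulated counts.

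Positions, lengths and sequences come from GRCh37 with the GENCODE annotation lifted to it, and coding sequences were aligned with Biopython 1.88. The members and lists were chosen with earlier results of these data known. Named are the 8 members, listed genes that passed the threshold, the genes from IRF9 to TINF2 and the 5 genes most like STAG2, of which 1 is not reported here. Other genes were named after their values were seen. No list was tested as a set.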

Additional observations from a re-analysis of the deposited data

How the results depend on the processing

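The log2 fold change of each tested subunit kept its sign under every alternative run. STAG2 passed under each other tool, filter and scaling, and leaving out single libraries gave log2 fold changes from -2.63 to -1.68, not past the threshold in 4 of the 6 cases (without WT replicate 2, WT replicate 3, KD replicate 2 or KD replicate 3). The subunits called were 1 as reported, 2 with no filter on low counts, 2 with the replicate block, and from 0 to 1 without single libraries. RAD21 was the subunit gained both with no filter (-0.95, adjusted p = 0.00232 in edgeR) and with the block, which changed no other subunit's call. The block gave the same differences in shares and ratios, for which 3 pairs allow a sign-flip p no lower than 0.25.

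Over all genes the 404 calls became 979 with DESeq2, 1103 with no filter, 1486 with the replicate block, 757 with the replicate 2 and 3 libraries only, and from 121 to 531 without single libraries. Among the listed genes other than the 8 subunits' own list, 6 calls became 19 with DESeq2, 21 with no filter, 30 with the block, 17 with the replicate 2 and 3 libraries only, and from 2 to 9 without single libraries. The cause was not tested. Without single libraries the STAG2 share differed by -24.1 to -16.2 points, STAG1 plus STAG2 over the ring mean by -0.273 to -0.174, and the meiotic share by 2.9 to 7.21 points. Depth limited REC8, at 16 counts in 2 libraries, and SMC1B.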
